A study of Danio rerio with 48 samples.

Results

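The 10 genes described here, ascl1a, lin28a, stat3, socs3a, hbegfa, mmp9, sox2, insm1a, pax6a and six3b, are regulators of Müller glia reprogramming in the zebrafish retina. They were taken as a named list, and all 10 had a row in the table of 15233 genes with a value for each library. They were followed across the chronic low light (CLL) time-course, in which adult albino zebrafish of 6 to 9 months were kept in the dark for 24 h and then held under continuous halogen light of about 5000 lux. The 0 h baseline was collected at the end of the dark period, before any light. All groups share the albino strain and the 24 h of dark, but only the 0 h retinas were dark-adapted when collected. In every comparison with 0 h, leaving the dark-adapted state and exposure to the light therefore cannot be told apart. Light-exposed retinas were collected at 24, 36 and 72 h post light onset (hpl) and at 5, 10, 14 and 28 days post light onset (dpl). By these times only 36 hpl is not a whole number of days from light onset. The labels give no time of day, so at 36 hpl time of day and length of exposure cannot be told apart. Each library was made from the left retina of 1 fish, with 6 retinas at each of 8 time-points and 48 in all. The library names fall into 2 sets, called library sets 1 and 2 here, with 3 retinas per set and time-point, and the labels do not say whether these are the 2 rounds of light treatment of the study.

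Müller glia are the radial glia of the retina. In zebrafish they can respond to the loss of neurons by reprogramming, dividing and giving rise to progenitors that replace the lost cells. In that response, known mainly from acute injury, secreted and matrix-bound signals such as Hbegf act on the glia, the transcription factor Stat3 is induced with its feedback inhibitor Socs3, and Stat3 and Ascl1a lie upstream of the RNA-binding protein Lin28a. Sox2, Pax6 and Six3 are transcription factors of retinal progenitors, and several of them are also made by mature neurons of the inner retina. Whole retinas were sequenced, so fewer cells of a type and less RNA per cell cannot be told apart, and no value below is specific to Müller glia. In RefSeq, on another genome build, the whole spans of lin28a, sox2, insm1a and pax6a overlap 1 other gene each, and that of mmp9 overlaps 4. Without a stated strand setting, it is unknown whether reads of the overlapping genes were counted with theirs.

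Values are the pseudocounts that the authors made with edgeR, on a linear scale, and their sum was almost equal between libraries, 1629375 to 1634449, so the sequencing depth of each library is unknown. Changes are log2 fold changes of value + 1 against 0 h, from a limma fit to all 48 libraries that also holds a term for the library set. Only genes reaching 5 in 6 or more libraries were tested, 11395 in all, and p-values were adjusted over them by Benjamini-Hochberg. This scale understates the changes of low genes such as ascl1a. Of 18 Müller glia markers 17 had a row, with summed levels of 8897 to 11321 in the 0 h retinas, although slc1a3b was at 0 in 19 libraries and apoea in 39. Retinas of the light time-points also differed from 0 h in the summed markers of other cells. Rod markers were at 58579 to 70084 at 0 h and 8621 to 17111 at 14 dpl, pigment epithelium markers were at 1542 to 3468 at 0 h and 6362 to 10213 at 14 dpl, and microglia markers were at 223.1 to 391.5 at 0 h and 658.9 to 1255 at 10 dpl. The part of these cells in the changes below was not tested.

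Of the 10 genes, 9 passed the filter on low values and socs3a did not. Over the time-course, 5 of the 9 varied by the moderated F test (limma, adjusted p < 0.05), namely ascl1a, stat3, insm1a, pax6a and six3b, where 32.3% of all genes tested did. At 24 hpl, 3 of 9 passed the test against 0 h, stat3 upward and pax6a and six3b downward, beside 15.5% of all genes (8.37% higher and 7.14% lower). At 36 hpl only stat3 passed among the 9, upward, beside 13.5% of all genes (9.66% higher, 3.80% lower). At 72 hpl stat3 was higher and pax6a lower, beside 14.9% (9.20% higher, 5.70% lower). From 5 dpl on every gene of the 9 that passed was higher than at 0 h. The 5 dpl retinas had ascl1a and stat3, beside 8.58% of all genes (6.49% higher, 2.09% lower), and the 10 dpl retinas had the same pair, beside 7.92% (6.41% higher, 1.51% lower). The 14 dpl retinas had ascl1a and insm1a, beside 7.90% (5.59% higher, 2.31% lower), and the 28 dpl retinas had ascl1a, stat3 and insm1a, beside 11% (7.74% higher, 3.26% lower). The 1 to 3 calls a time-point are a description of these genes beside those shares. Counts of marker genes past the test below stand beside the same shares. The median log2 fold change of the 9 lay between -0.24 and 0.29, and that of all genes between -0.07 and 0.16. In total 15 of the 63 comparisons with 0 h passed, 12 higher and 3 lower, and lin28a, hbegfa, mmp9 and sox2 passed at no time-point, nor at any with an unadjusted p under 0.05.

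**Figure D1:**
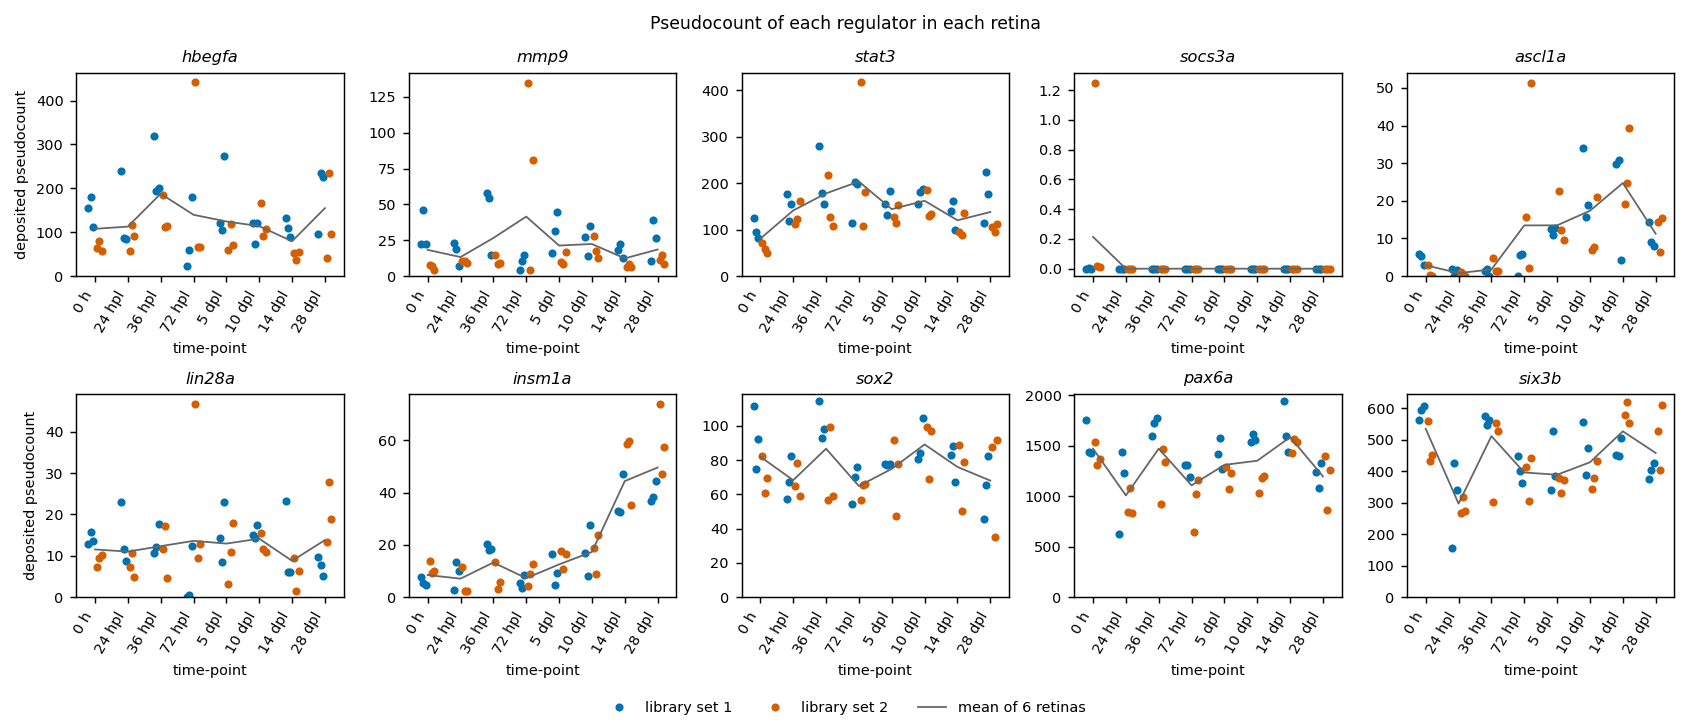
Deposited pseudocount of each of the 10 genes (vertical axis, linear) in each of the 48 retinas, by time-point, with library set 1 in blue, library set 2 in orange and the mean of the 6 retinas as a grey line. The retinas at 14 and 28 dpl lie above all 0 h retinas for insm1a, and the retina at the top of the hbegfa, mmp9, lin28a and stat3 panels is 72 hpl replicate 4.

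Hbegfa, the heparin-binding EGF-like growth factor that in zebrafish can start Müller glia reprogramming after injury, did not pass the test at any time-point. Its values at 0 h had a lowest of 58.4, a median of 95.5 and a highest of 179.5. At 36 hpl the values were higher in most retinas, with a lowest of 113.1, a median of 189.6 and a highest of 320.3, and 5 other time-points had medians between 66.7 and 114.7. The groups at 0 h and 36 hpl overlapped. At 36 hpl the log2 fold change was 0.83 ± 0.42 (SE, n = 6 against 6; 95% interval -0.02 to 1.68; limma adjusted p = 0.212), and at 28 dpl, where the retinas ran from 40.6 to 234.9, it was 0.39 with an interval of -0.46 to 1.24. At 72 hpl a single retina, replicate 4, had 441.5 while the other 5 ran from 23.9 to 180.2. The paralog hbegfb was lower in value and also passed nowhere, with its highest log2 fold change at 72 hpl (1.18 ± 0.51, adjusted p = 0.112).

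Mmp9, a secreted matrix metalloproteinase that is induced in Müller glia after acute damage in zebrafish, also passed at no time-point over both sets. At 0 h it ran from 4.18 to 46.2 with a median of 15.0, and at the 7 light time-points the medians were 10.4 to 22.5. The log2 fold changes lay between -0.26 at 14 dpl and 0.60 at 10 dpl, with 95% intervals that reached from -1.38 to 1.73, so that a change of more than 2-fold in either direction remained inside the intervals. The highest values of mmp9 in the series were again at 72 hpl, 134.9 in replicate 4 and 80.8 in replicate 6, while the other 4 retinas of that time-point ran from 3.95 to 14.6. Among 9 other matrix proteases and their inhibitors tested, adam8a was higher at 36 hpl (1.83 ± 0.57, adjusted p = 0.0234), mmp14b, a membrane-bound metalloproteinase, was higher at 10 dpl (1.46 ± 0.38, adjusted p = 0.00817) and adam10a, a sheddase, was lower at 28 dpl (-0.56 ± 0.15, adjusted p = 0.0108), while no gene of that list passed at the other 4 time-points. Of all genes, 9.66% were higher at 36 hpl, 6.41% were higher at 10 dpl and 3.26% were lower at 28 dpl.

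Of 16 other EGF-family and growth factor ligands and their receptors tested, up to 3 were lower at a time-point and 0 were higher by limma, with 0 to 3 higher and 2 to 6 lower at an unadjusted p under 0.05. The lower ones included igf1, insulin-like growth factor 1, at 28 dpl (-0.99 ± 0.25, adjusted p = 0.00499), erbb4a, a receptor of the EGF family, at 72 hpl (-1.50 ± 0.50, adjusted p = 0.0335) and igf1ra, an Igf1 receptor, at 14 dpl (-1.48 ± 0.41, adjusted p = 0.0133). The median log2 fold change of the list was -0.48 at 14 and at 28 dpl, where that of all genes was 0.04 and 0.03. Of all genes, 1.51% to 7.14% were lower and 5.59% to 9.66% higher at a time-point.

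Stat3, the transcription factor that carries signals of gp130-type cytokine receptors to the nucleus, was the only 1 of the 9 genes that was higher at 24 hpl and passed the test at 6 of the 7 light time-points. At 0 h its values had a lowest of 50.8, a median of 76.5 and a highest of 125.5. At 24 hpl they had a lowest of 112.5, a median of 138.9 and a highest of 176.0, at 36 hpl 107.7, 167.3 and 280.0, and at 72 hpl 107.5, 188.8 and 417.8. Of the 6 retinas, 3, 5 and 4 lay above the highest 0 h retina at these 3 time-points in turn, and the others overlapped the 0 h range. The log2 fold change was 0.84 at 24 hpl (limma adjusted p = 0.0062), 1.12 at 36 hpl (2.23e-04) and 1.23 at 72 hpl (6.16e-05), the last being a 2.35-fold difference, each with an SE of 0.23 and n = 6 against 6.

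From 5 dpl on stat3 passed the test against 0 h at 3 of 4 time-points, and none of the 4 passed against 72 hpl (limma adjusted p = 0.137 to 0.741). The 5 dpl retinas had a lowest of 113.9, a median of 141.9 and a highest of 183.6, and the 10 dpl retinas 128.8, 167.9 and 188.1, which was the only time-point at which all 6 retinas lay above every 0 h retina. The log2 fold change was 0.88 in the 5 dpl group (limma adjusted p = 0.00627), 1.05 in the 10 dpl group (0.00113) and 0.76 in the 28 dpl group (0.0196), while the 0.60 of the 14 dpl group did not pass (0.0985). The call at 28 dpl was lost when 0 h replicate 6 or 28 dpl replicate 2 was left out (adjusted p = 0.0627 to 0.068), and the value at 14 dpl passed without 72 hpl replicate 4 (0.0366). Both library sets had positive values at every time-point, 0.40 to 0.99 in set 1 and 0.78 to 1.73 in set 2. With set 1 alone, 3 retinas a group, only the 36 hpl value of stat3 passed among the 7, and the calls at 5 and 28 dpl were also lost with set 2 alone (adjusted p = 0.0585 and 0.137).

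Socs3a, a suppressor of cytokine signalling that in zebrafish is induced by Stat3 and inhibits it, could not be followed. It was listed at 0 in all 42 light-exposed retinas and in 2 of the 0 h retinas, at 0.0186 or less in 3 further 0 h retinas, and at 1.25 in 0 h library A of set 2. Its paralog socs3b had low but measurable values, 1.0 to 8.9 at 0 h with a median of 4.3, and was higher than 0 h in the groups of 36 hpl (1.98 ± 0.52, limma adjusted p = 0.00589), 72 hpl (1.78, 0.0146) and 10 dpl (2.32, 0.00184). At 10 dpl the values of socs3b were 12.5 to 33.0, all 6 above every 0 h retina.

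Of 14 other genes of the Jak, Stat and Socs families tested, 3, 4 and 2 were higher at 24, 36 and 72 hpl and 4 each at 5 and 10 dpl. None of them was lower, with at most 1 at an unadjusted p under 0.05, and 0 passed at 14 and 28 dpl by limma, with 1 higher at each at an unadjusted p under 0.05. The median log2 fold change of the list was 0.52 at 36 hpl and 0.10 at 14 dpl, beside 0.13 and 0.04 for all genes. Of all genes, 8.37%, 9.66% and 9.20% were higher at 24, 36 and 72 hpl, and 6.49% and 6.41% at 5 and 10 dpl. Jak1, a kinase that phosphorylates Stat proteins, ran from 212.2 to 307.9 at 0 h and from 410.6 to 722.8 at 36 hpl without overlap, a log2 fold change of 1.24 ± 0.18 (adjusted p = 7.43e-07). Stat2, a factor of the interferon response, had its highest log2 fold change at 24 hpl (1.95 ± 0.42, adjusted p = 6.55e-04), while its mean level was 462.6 at 24 hpl and 501.7 at 5 dpl, where 1 retina had 2193. Stat1b passed only at 5 dpl among the 7 time-points (2.39 ± 0.78, adjusted p = 0.0443), with a median of 6.44 and 1 retina at 131.0, and its medians at 24 and 36 hpl, which did not pass, were 5.06 and 4.94.

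Of 8 cytokines and cytokine receptors tested, 1 to 3 were higher at each time-point and 0 were lower by limma (0 or 1 at an unadjusted p under 0.05). Of all genes, 5.59% to 9.66% were higher and 1.51% to 7.14% lower at a time-point. The leptin gene lepa and its receptor lepr, both known in zebrafish for induction in injured tissue, were at their highest at 5 dpl, with log2 fold changes of 3.36 ± 0.51 (adjusted p = 3.27e-06) and 2.74 ± 0.41 (2.01e-06). The 0 h values of lepa were 1.9 to 35.4 and its 5 dpl values 66.9 to 110.9. Cntf, ciliary neurotrophic factor, was higher at 24 hpl only among the 7 (1.92 ± 0.47, adjusted p = 0.00271). Il6 and lepb were listed at 0 in every 0 h retina.

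Markers of immune cells, pigment epithelium and Müller glia are given beside the stat3 values, and their part in them was not tested. The 14 microglia markers, of which cd74a was the most abundant, summed to 186.8 to 359.6 at 24 hpl against 223.1 to 391.5 at 0 h. Of these markers 3 and 4 were higher at 36 and 72 hpl and 7 and 10 at 5 and 10 dpl. The sum of 6 neutrophil markers, mostly lyz, was 1.69 to 18.7 at 0 h and 35.5 to 55.4 at 24 hpl. The defining neutrophil marker mpx was at 0 in 19 of the 48 libraries, and exact zeros are not comparable between libraries. Pigment epithelium markers summed to 2732 to 9852 at 24 hpl. Of 15 Müller glia markers tested, 3 were higher and 4 lower at 24 hpl, 2 and 2 at 36 hpl, and 2 and 3 at 72 hpl. Their median log2 fold change was -0.32, -0.51 and -0.38 in turn, beside -0.07, 0.13 and 0.03 for all genes. The Müller glia sums were 10166 to 13044 at 24 hpl, 7967 to 12398 at 36 hpl and 6058 to 15464 at 72 hpl.

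**Figure D2:**
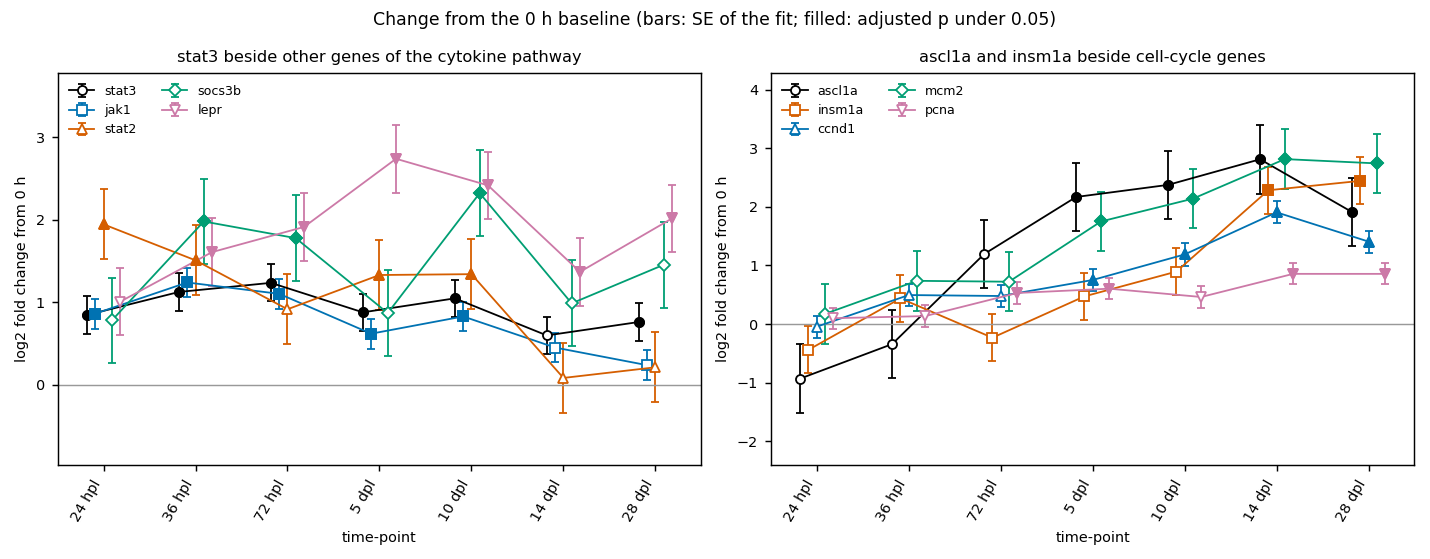
Log2 fold change from 0 h (vertical axis) by light time-point, with bars of 1 SE from limma and filled symbols where the adjusted p was under 0.05, for stat3 beside jak1, stat2, socs3b and lepr on the left and for ascl1a and insm1a beside ccnd1, mcm2 and pcna on the right. Stat3 lies between 0.60 and 1.23 throughout, and insm1a has 0.90 at 10 dpl, 2.28 at 14 dpl and 2.44 at 28 dpl.

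Ascl1a, a proneural basic helix-loop-helix factor needed for Müller glia reprogramming in zebrafish, was at 5.90 or less in every 0 h retina and was higher from 5 dpl on. At 0 h its values were 0.12 to 5.90 with a median of 2.91, at 24 hpl 0 to 1.86 with a median of 0.63, and at 36 hpl 0 to 4.70 with a median of 1.42. The 5 dpl retinas had a lowest of 9.47, a median of 12.4 and a highest of 22.7, and the 10 dpl retinas 6.94, 17.3 and 33.9. The 14 dpl retinas had 4.24, 27.3 and 39.4, and the 28 dpl retinas 6.37, 11.7 and 15.4. All 6 retinas at 5, 10 and 28 dpl and 5 of 6 at 14 dpl lay above every 0 h retina, the exception being 14 dpl replicate 3.

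Its log2 fold change was 2.17 in the 5 dpl group (limma adjusted p = 0.00971), 2.38 in the 10 dpl group (0.00505), 2.81 in the 14 dpl group (6.60e-04) and 1.91 in the 28 dpl group (0.0247), each with an SE of 0.58 and n = 6 against 6. The value at 14 dpl is a 7.03-fold difference on this scale. The call at 28 dpl was lost without 0 h replicate 5, 0 h replicate 6 or 28 dpl replicate 6 (adjusted p = 0.0545 to 0.0869). The decline at 24 hpl, -0.93, did not pass, and neither did the comparison of 28 with 14 dpl. Against 24 hpl, ascl1a was higher at 72 hpl (2.13, adjusted p = 0.0155) and at every later time-point.

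At 72 hpl the mean of ascl1a was higher in library set 2 than in set 1, and the retinas of the sets overlapped. Set 1 had 0, 5.6 and 6.0 in its 3 retinas, and set 2 had 2.2, 15.7 and 51.3. The log2 fold change against 0 h was -0.62 within set 1 and 3.01 within set 2, where the 0 h retinas were lower (0.1, 0.2 and 2.9 against 2.9, 5.2 and 5.9 in set 1). The pooled value of 1.19 did not pass (adjusted p = 0.172) and passed without 72 hpl replicate 1 (1.77, 0.0256), and the interaction of time-point and set did not pass for ascl1a (adjusted p = 0.268). At 5, 10, 14 and 28 dpl both sets were positive, 1.01 to 2.04 in set 1 and 2.72 to 3.98 in set 2. Within set 1 alone, 3 retinas a group, none of the 4 passed (limma adjusted p = 0.12 to 0.485), and within set 2 alone all but the 10 dpl value did (2.72, adjusted p = 0.0532).

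Insm1a, a zinc-finger repressor that in zebrafish is induced downstream of Ascl1a and takes part in the exit of progenitors from the cell cycle, passed the test at 14 and 28 dpl. A difference in timing from ascl1a was not tested. Its values were 4.85 to 13.7 at 0 h with a median of 8.52, and the medians of the next 5 time-points were 6.26, 15.7, 7.09, 13.6 and 17.7. At 14 dpl the lowest was 32.6, the median 41.2 and the highest 59.9, and at 28 dpl 36.8, 45.6 and 74.0. All 12 retinas of these 2 time-points lay above every 0 h retina, and the lowest of them lay above the highest retina of any earlier time-point, 27.6 at 10 dpl.

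Insm1a had a log2 fold change of 2.28 ± 0.40 at 14 dpl (SE, n = 6 against 6; limma adjusted p = 6.14e-05) and 2.44 ± 0.40 at 28 dpl (1.28e-05), against 0.90 at 10 dpl (0.195). Insm1a was also higher at 28 dpl than at 10 dpl (1.55, adjusted p = 0.041) and higher at 14 dpl than at 5 dpl (1.81, adjusted p = 0.0204), while the step from 10 to 14 dpl did not pass (1.39, adjusted p = 0.126). Within sets the values were 2.46 and 2.56 in set 1 and 2.1 and 2.33 in set 2. The paralog insm1b had positive values at the same time-points, 0.83 ± 0.29 at 14 dpl and 0.72 at 28 dpl, that did not pass (adjusted p = 0.0724 and 0.111). Ascl1b, the paralog of ascl1a, had log2 fold changes of -0.64 to 0.28 with no time-point past the test, and its 95% interval at 14 dpl, -1.05 to 0.71, lay below the 1.64 to 3.99 of ascl1a, a difference between the genes that was not itself tested.

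**Figure D3:**
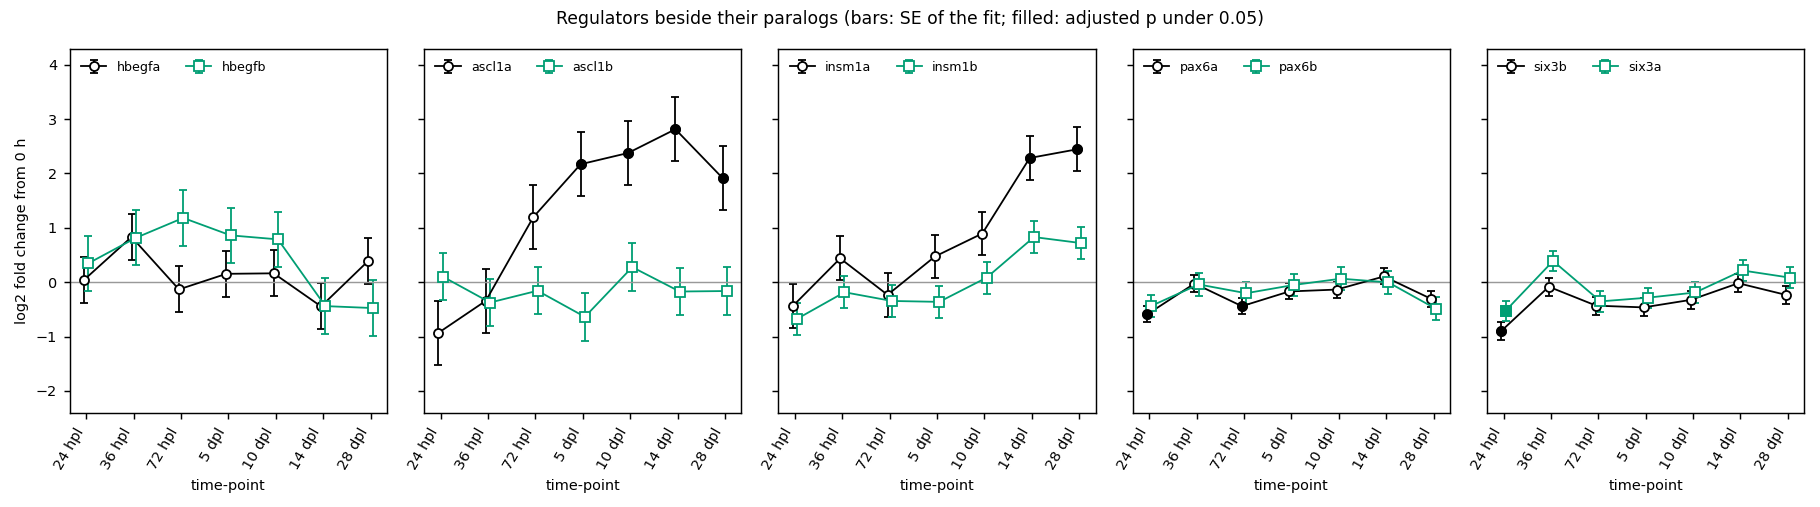
Log2 fold change from 0 h (vertical axis) of 5 of the genes in black and of the paralog of each in green at the 7 light time-points, with bars of 1 SE from limma and filled symbols where the adjusted p was under 0.05. Ascl1a reaches 2.81 at 14 dpl where ascl1b has -0.17, and pax6a and six3b follow courses close to those of pax6b and six3a.

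Among cell-cycle genes more passed at the later time-points. Of 16 tested, 3 were higher at each of 36 and 72 hpl, 4 at each of 5 and 10 dpl, 8 at 14 dpl and 10 at 28 dpl. At 24 hpl 0 passed by limma (1 higher and 1 lower at an unadjusted p under 0.05), and none was lower later (0 to 2 at an unadjusted p under 0.05). Of all genes, 9.66% and 9.20% were higher at 36 and 72 hpl and 6.49% and 6.41% at 5 and 10 dpl. At 14 and 28 dpl 5.59% and 7.74% of all genes were higher. The list had a median log2 fold change of 0.96 at 14 dpl and 1.38 at 28 dpl beside 0.04 and 0.03 for all genes. The 36 hpl genes included cdkn1ca (2.83 ± 0.55, adjusted p = 1.46e-04) and cdkn1bb (0.77), both of which encode inhibitors of cyclin-dependent kinases. Ccnd1, cyclin D1, ran from 40.6 to 83.3 at 0 h and from 162.5 to 329.5 at 14 dpl, with a log2 fold change of 1.91 ± 0.19 (adjusted p = 1.31e-10). Mcm2, a subunit of the replicative helicase, was at 2.82 ± 0.51 at 14 dpl (adjusted p = 8.74e-05), and pcna, the sliding clamp of DNA replication, at 0.86 at 14 and 28 dpl. Microglia markers were higher for 3 and 4 of 14 genes at 14 and 28 dpl, and their sums, 514.0 to 772.9 and 530.8 to 934.6, lay above every 0 h retina. Of 15 Müller glia markers, 1 was higher at each, and 0 were lower at 14 dpl and 1 at 28 dpl. Their median log2 fold change was -0.08 at 14 dpl and -0.12 at 28 dpl. The sum of the Müller glia markers, of which rgrb and glula were the most abundant, was 7906 to 12172 at 14 dpl. At 28 dpl it was 11503 to 14177, above every 0 h retina (8897 to 11321). The part of these markers in the later values of ascl1a, insm1a and the cell-cycle genes was not tested.

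Of other proneural and differentiation factors 14 were tested. At 24 hpl 5 were lower, 4 at each of 72 hpl and 5 dpl and 1 at each of 36 hpl and 10 dpl, and only her6, a Notch target, was higher at 36 hpl (0.83) and at 28 dpl (0.80) among the 14. At an unadjusted p under 0.05, 6 were lower and 0 higher at each of 24 and 72 hpl, and 5 were higher at 14 dpl and 3 at 28 dpl with 0 lower. All genes passed in the shares given above for each time-point. Hes6, a Hes-family factor, ran from 58.4 to 86.9 at 0 h and from 5.0 to 22.9 at 24 hpl, a log2 fold change of -2.32 ± 0.25 (limma adjusted p = 3.62e-10), and was at -0.25 at 14 dpl, past the test no longer. Tgif1, a transcriptional corepressor of TGFβ signalling, fell by 2.24 on the log2 scale at 24 hpl (adjusted p = 7.05e-10) and was at -0.14 at 36 hpl. The mean of tgif1 was again low at 72 hpl and 5 dpl, 48.7% and 46.0% of 0 h, and the gene passed at 3 time-points in all. Olig2, a basic helix-loop-helix factor, was lower at 24 hpl only among the 7 (-1.62 ± 0.50, adjusted p = 0.0201).

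Lin28a, an RNA-binding protein that blocks maturation of let-7 microRNAs and in zebrafish Müller glia acts downstream of Ascl1a, did not pass at any time-point over both sets. Its values at 0 h were 7.42 to 15.8 with a median of 11.5, and the medians at the light time-points were 6.27 to 14.7. The log2 fold changes lay between -0.77 at 72 hpl and 0.29 at 10 dpl with an SE of 0.57, and the 95% intervals together reached from -1.91 to 1.43. At 5, 10, 14 and 28 dpl, where ascl1a was higher, lin28a had log2 fold changes of 0.00, 0.29, -0.63 and 0.09 (limma adjusted p = 0.999, 0.862, 0.565 and 0.951). The lowest and the highest value of lin28a both came from 72 hpl, 0 in replicate 1 and 46.7 in replicate 4, with a log2 fold change of -2.48 in set 1, which passed within that set alone (limma adjusted p = 0.0275), and 0.93 in set 2, which did not (0.495). The interaction of time-point and set gave adjusted p = 0.086 for lin28a, the lowest among the 9, and 0 of the 9 passed by limma (2 at an unadjusted p under 0.05, lin28a and mmp9) where 0.948% of all genes did.

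Of 10 other pluripotency and RNA-binding genes tested, 1 was higher at 36 hpl, 2 at 72 hpl and 1 at each of 5 and 14 dpl, all of them myc genes, and 1 was lower at 24 hpl. Of all genes, 9.66% and 9.20% were higher at 36 and 72 hpl and 6.49% and 5.59% at 5 and 14 dpl. At 24 hpl 7.14% of all genes were lower. Mych, a member of the Myc family, was at 2.31 ± 0.61 at 72 hpl (limma adjusted p = 0.00632), mycn at 0.80 ± 0.18 (0.00108), and myca was lower at 24 hpl (-0.94 ± 0.31, 0.0321). Lin28b and klf4 were listed at 0 in every 0 h retina.

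Sox2, an HMG-box factor of neural stem cells that is also made by mature Müller glia and some amacrine cells, did not pass at any time-point. Its values were 60.5 to 111.8 at 0 h with a median of 78.7, and the medians at the 7 light time-points were 65.8 to 95.5. The log2 fold changes lay between -0.32 and 0.13 with an SE of 0.20, and the 95% intervals reached from -0.71 to 0.53, which leaves out a 2-fold change in either direction. Sox2 was the gene with the narrowest intervals among the 4 that never passed. Among the other Sox genes of retinal progenitors, sox11b passed at all 7 time-points, sox11a at 24 hpl (-1.04) and 5 dpl (1.46), sox4a at 24 hpl (-1.10) and 36 hpl (1.19) and sox4b at 36 hpl (1.64).

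Pax6a, a paired-box factor of retinal progenitors and of amacrine and ganglion cells, was lower at 24 and 72 hpl. At 0 h its values had a lowest of 1309, a median of 1431 and a highest of 1750, at 24 hpl 623.4, 962.5 and 1438, and at 72 hpl 645.6, 1175 and 1310. At each of these 2 time-points 5 of 6 retinas lay below every 0 h retina. Pax6a had a log2 fold change of -0.59 ± 0.15 at 24 hpl (SE, n = 6 against 6; limma adjusted p = 0.00323) and -0.44 at 72 hpl (0.0347), and it was -0.03 at 36 hpl and 0.11 at 14 dpl. Values at 36 hpl and at 14 dpl were higher than at 24 hpl (0.57, adjusted p = 0.00381, and 0.70, adjusted p = 5.63e-04). The call at 72 hpl was lost when 0 h replicate 5, 0 h replicate 6, either 0 h library A or 72 hpl replicate 4 was left out (adjusted p = 0.0523 to 0.143), and neither call of pax6a passed within set 1 alone (0.0772 and 0.462) or set 2 alone (0.116 and 0.108), where both values were also negative. The paralog pax6b had -0.44 ± 0.21 at 24 hpl, which did not pass (adjusted p = 0.159).

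Six3b, a homeobox factor of the eye field and of inner retinal neurons, was lower at 24 hpl. At 0 h its values had a lowest of 432.9, a median of 560.7 and a highest of 607.4, and at 24 hpl 156.7, 296.1 and 427.5, so that all 6 retinas at 24 hpl lay below every 0 h retina. The log2 fold change was -0.90 ± 0.17 (SE, n = 6 against 6; limma adjusted p = 7.72e-05). At 36 hpl, which also differs in time of day, the values were 301.5 to 575.8 (-0.08 against 0 h), higher than at 24 hpl by 0.81 (limma adjusted p = 2.52e-04). Six3b then had -0.43 at 72 hpl and -0.46 at 5 dpl, neither of which passed (adjusted p = 0.0735 and 0.0782), and -0.02 at 14 dpl. Both passed with median-of-ratios scaling (0.04 and 0.0272), the 72 hpl value passed without 24 hpl replicate 1 (0.0358), and the 5 dpl value without that retina or 5 dpl replicate 2 (0.0332 to 0.0354). The paralog six3a was also lower at 24 hpl (-0.52 ± 0.19, adjusted p = 0.0472). In both pax6a and six3b the lowest retina at 24 hpl was replicate 1, with 623.4 and 156.7, and the calls at 24 hpl held without it.

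Of 23 other retinal progenitor factors tested, 11 were lower and 1 was higher at 24 hpl, and 2 were lower and 5 higher at 36 hpl, with a median log2 fold change of -0.56 at 24 hpl and 0.19 at 36 hpl beside -0.07 and 0.13 for all genes. At 72 hpl 5 were lower and 1 higher, and from 5 dpl on 3 or 4 were lower and 1 to 3 higher. As background, the downward share among all genes tested was 7.14% at 24 hpl, 3.80% at 36 hpl and 5.70% at 72 hpl. The upward share was 8.37%, 9.66% and 9.20% in turn. From 5 dpl on the downward share lay between 1.51% and 3.26%, and the upward share between 5.59% and 7.74%. The retinal homeobox genes rx1 and rx2, which are also active in photoreceptors, were lower at all 7 time-points, with -2.07 for rx1 at 36 hpl. Sox11b, a SoxC factor of differentiating and regenerating neurons, had 32.3 to 56.6 at 0 h. Its 5 dpl values were 1071 to 1914, with a log2 fold change of 5.01 ± 0.27 (limma adjusted p = 4.18e-20). Markers of amacrine, ganglion and horizontal cells, which include cells that make pax6a and six3b, summed to 7312 to 8898 at 0 h. Their sums were 7519 to 9097 at 24 hpl, 6879 to 8247 at 36 hpl and 6218 to 8491 at 72 hpl. Of 18 tested, 4 were lower and 1 higher at 24 hpl, and 4 were lower and 0 higher at 72 hpl. Their median log2 fold change was -0.34, -0.12 and -0.31 at 24, 36 and 72 hpl, beside -0.07, 0.13 and 0.03 for all genes. The part of these cells in the values of pax6a and six3b was not tested.

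**Figure D4:**
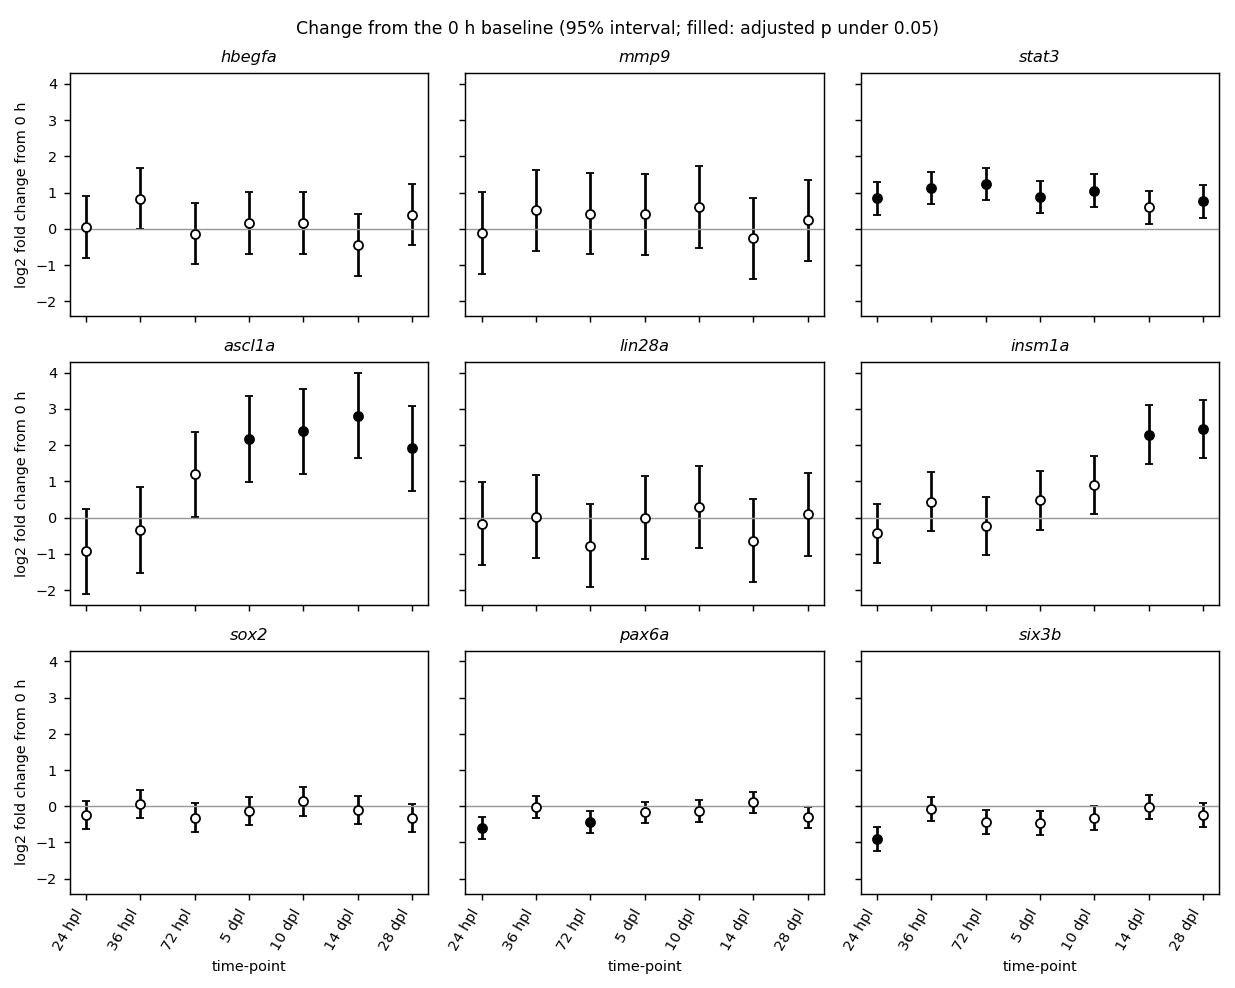
Log2 fold change from 0 h (vertical axis) of the 9 genes tested at the 7 light time-points, with 95% intervals from limma and filled symbols where the adjusted p was under 0.05. The 15 filled points are 6 for stat3, 4 for ascl1a, 2 each for insm1a and pax6a and 1 for six3b, and the intervals of sox2 stay between -0.71 and 0.53.

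When the 8 time-points were put in the order of the fitted level of each gene, 0 of 63 pairs next to each other in level passed by limma (4 at an unadjusted p under 0.05). Such pairs have the smallest differences by construction and need not be neighbours in time. The count therefore says only that the order of levels was not resolved in its single steps. For the 5 genes that varied, the ends of the order are given as a description. They were picked from the same values that were compared, and the adjustment over genes does not cover that choice. The fitted level of ascl1a was lowest at 24 hpl and highest at 14 dpl (3.74, adjusted p = 5.40e-06), that of insm1a lowest at 24 hpl and highest at 28 dpl (2.88, adjusted p = 3.40e-07), and that of stat3 lowest at 0 h and highest at 72 hpl. The level of pax6a was lowest at 24 hpl and highest at 14 dpl (0.70), and that of six3b lowest at 24 hpl and highest at 0 h.

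At 0 h the 3 retinas of set 1 and the 3 of set 2 did not overlap for 7 of the 9 genes, all but sox2 and pax6a, where 23.1% of all genes tested did not overlap. Set 1 was the higher for 6 of the 7 and the lower for insm1a. At 0 h the 3 retinas of set 1 ran from 111.9 to 179.5 for hbegfa, from 22.4 to 46.2 for mmp9 and from 81.8 to 125.5 for stat3. Those of set 2 ran from 58.4 to 79.0, from 4.2 to 7.6 and from 50.8 to 71.2. The set of 1 retina in each was inferred from its column name, and these differences were not tested. The set term of the fit takes up such an offset where it is the same at every time-point. At 72 hpl the set 1 and set 2 values of mmp9 were -1.59 and 2.43, of which the second passed within set 2 alone (limma adjusted p = 0.0434), and those of hbegfa -1.18 and 0.91, and the interaction did not pass for either (adjusted p = 0.123 and 0.4).

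At 72 hpl, replicate 4 had the highest value of the time-point for stat3 (417.8), hbegfa (441.5), mmp9 (134.9) and lin28a (46.7), and the lowest for pax6a (645.6). Its summed microglia, Müller glia and pigment epithelium markers were the lowest of the 6 retinas at 72 hpl, 145.0, 6058 and 4159, as were those of amacrine, ganglion and horizontal cells, 6218, and of bipolar cells, 1705, and its neutrophil sum, 171.6, was the highest. Without it stat3 at 72 hpl still passed and pax6a did not. Replicate 6, which had the highest ascl1a (51.3) and the next highest mmp9 (80.8), had pigment epithelium markers at 15044.

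Across all 48 libraries, with the mean of each library set taken out, pax6a and six3b were the 2 genes of the list that varied most alike (Pearson r = 0.78 on the log2 scale, 0.83 in set 1 and 0.73 in set 2). The next pairs follow, with the values of set 1 and set 2 in brackets. Hbegfa had 0.67 with lin28a (0.67 and 0.67), 0.65 with mmp9 (0.78 and 0.56) and 0.53 with stat3 (0.44 and 0.61). Mmp9 had 0.61 with stat3 (0.32 and 0.78) and 0.52 with lin28a (0.53 and 0.53). Sox2 had 0.51 with pax6a (0.60 and 0.45), and ascl1a 0.50 with insm1a (0.31 and 0.65). The retina 72 hpl replicate 4 was the highest of its time-point for hbegfa, lin28a, mmp9 and stat3. Its part in the coefficients was not tested. These coefficients are descriptions over libraries that share time-points and scaling. The genes named next were picked by this measure, so a course shared with a member is no separate result.

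Among all genes tested, the closest to ascl1a in this measure over 48 libraries was ccnd1 (r = 0.72), followed by caprin1b (0.71), an RNA-granule protein, and dhrs9 (0.70), a retinol dehydrogenase. Ccnd1 was also the second closest to insm1a (0.77), between zgc:153405 (0.78) and myb (0.76), a transcription factor of proliferating progenitors that was higher at 14 and 28 dpl (2.24 and 1.98). The closest to stat3 were mvp (0.76), the major vault protein, jak1 (0.76) and atf3 (0.74), a stress-induced transcription factor with log2 fold changes of 2.55 to 4.37 at the 7 time-points.

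The genes closest to hbegfa were met (0.79), the receptor of hepatocyte growth factor, fosl1a (0.78), an AP-1 subunit, and homer3 (0.74), a scaffold protein of synapses. Mmp9 was closest to hbegfa (0.65), nccrp1 (0.65, 0.82 in set 1 and 0.54 in set 2) and stat3 (0.61). Lin28a was closest to zgc:136353 (0.71, 0.84 in set 1 and 0.41 in set 2), which is the lipid transfer gene mttp in RefSeq. Next were dazl (0.68, 0.82 and 0.48), a germ-cell RNA-binding protein, and ihha (0.68, 0.75 and 0.55), a hedgehog ligand. Sox2 had the lowest top coefficient, 0.64 with scrt2 (0.49 and 0.74), then stom (0.60, 0.40 and 0.72) and prkag1 (0.59, 0.50 and 0.65).

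Pax6a was closest to pcdh10b (0.81), a protocadherin, gpr85 (0.80) and elmo1 (0.80). Six3b was closest to ptmab (0.82), a prothymosin, mab21l1 (0.80), a gene of eye development, and again pcdh10b (0.79). Each of these 5 was lower at 24 hpl, by 0.51 for elmo1 to 1.29 for pcdh10b on the log2 scale, and had -0.27 to 0.13 at 36 hpl. They were picked for likeness to pax6a or six3b over the same libraries, so a shared course follows in part from that choice.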

How the data were processed

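Single left retinas were measured by 3′ mRNA-seq (QuantSeq 3′, from 150 to 230 ng of RNA per the labels). The authors aligned reads with STAR to dR10, as the study writes the build, counted them with HTSeq and deposited edgeR pseudocounts, which are a linear signal rather than read counts. Tool versions, annotation and strand setting are not given in the sources used here. Deposited means by the authors equal the means of these values. Deposited comparisons, holding the authors' log2 fold changes and log2 mean CPM, a likelihood ratio score, p-values and FDR, were not used. The symbols of 12 genes had turned into dates and these were left out. All 48 columns of per-library values were used. Exact zeros are not comparable between libraries: the 0 h libraries have 1422 to 3610 genes at 0.

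The columns of 2 of the 0 h libraries carry no replicate number that is theirs alone. They count as 0 h, are called library A, and their set was taken from the column suffix, which goes with 1 set in the 46 others. Replicate numbers name retinas only.

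The test was limma 3.58.1 in R 4.3.3, with trended eBayes, on log2(value + 1) of all 48 libraries. Its terms were the time-point and the library set, which left 39 residual degrees of freedom, and genes had to reach 5 in 6 or more libraries. A call is a Benjamini-Hochberg adjusted p under 0.05 over 11395 genes. The fit was also run on simulated data, with normal noise on the log2 scale and changes at 5 dpl only. That run cannot show how the fit handles single outlying retinas or changes that differ between the sets. The members and lists were chosen with earlier results of these data known. Named genes are the 10 members, up to 3 genes per pathway list with the largest change past the test, the 3 genes most correlated with each member, and the most abundant markers. Outside that rule, chosen after their values were seen, are the paralogs hbegfb, ascl1b, insm1b, pax6b and six3a, and pcna, cdkn1bb, her6, sox11a, sox4a, sox4b, mpx, slc1a3b, apoea, il6, lepb, lin28b and klf4.

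Symbols were matched to RefSeq names (GRCz12tu, another build, so no position is given): 9 of 10 by symbol and lin28a as a synonym of lin28ab. There, 5 of the 10 overlap other genes: lin28a, sox2, insm1a and pax6a overlap 1 each, and mmp9 overlaps 4. Only whole gene spans were compared, without strand or exons. As no strand setting is stated, it is unknown whether reads of the overlapping genes were counted with theirs. Alternatives covered pseudocount, filter, scaling, the set term, each set alone, eBayes options, the replicate block, a fold threshold and leaving out each library.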

Additional observations from a re-analysis of the deposited data

Results flagged for a closer look

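Of 73 sets of 6 retinas of 1 gene at 1 time-point, 13 had a highest or lowest retina that stood far from the other 5 (Dixon's test at its 95% critical value, on linear values). The chance rate of about 1 in 20 holds for normally distributed values. Linear pseudocounts need not be, so the count of 13 cannot be called an excess. For 3 genes this was the same retina, 72 hpl replicate 4, with 417.8 for stat3 (next 203.0), 441.5 for hbegfa (next 180.2) and 46.7 for lin28a (next 12.8). Ascl1a had 51.3 in 72 hpl replicate 6 (next 15.7) and 22.7 in 5 dpl replicate 4 (next 12.8). Lin28a had 23.2 in 14 dpl replicate 1 (next 9.58), and that retina also had the highest pax6a of its time-point, 1942 (next 1595). Hbegfa had 240.1 in 24 hpl replicate 1 (next 115.6) and 273.8 in 5 dpl replicate 3 (next 120.6).

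Sox2 was low at 47.5 in 5 dpl replicate 5 (next 77.2), and six3b was low at 301.5 in 36 hpl replicate 4 (next 527.7) and high at 527.3 in 5 dpl replicate 2 (next 386.2). Socs3a was at 1.25 in 0 h library A of set 2, the other 0 h retinas being at 0.0186 or less.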

How the results depend on the processing

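Among the 15 calls, 12 held in each of the 48 fits that left out 1 library, and 4 of them (stat3 at 36 hpl, insm1a at 14 and 28 dpl and six3b at 24 hpl) also held in every other setting but the fold threshold, which was applied to the counts alone. The number of the 9 genes past the test ranged, with 1 library left out, from 1 to 3 at 72 hpl and 28 dpl (1 at 28 dpl without 0 h replicate 6) and from 2 to 3 for the 5 and 14 dpl groups, and stayed at 3, 1 and 2 for the 24 hpl, 36 hpl and 10 dpl groups, while 5 to 6 genes varied over the time-course. Set 1 alone gave 1 gene each in the 24 hpl, 72 hpl, 14 dpl and 28 dpl groups and 0 each in the 5 and 10 dpl groups by limma (2 and 3 at an unadjusted p under 0.05), with 3 varying over the time-course. Set 2 alone gave 1 gene each in the 5 and 10 dpl groups, 2 at 24 hpl and 3 at 72 hpl. The gene past the test at 72 hpl in set 1 alone was lin28a, and mmp9 was among the 3 in set 2 alone. Each set alone has 3 retinas a group. The log2 fold change of ascl1a at 72 hpl changed sign, -0.62 in set 1 alone against 1.19 over both sets. A fold of at least 2 beside the adjusted p left 0 genes of the 24 hpl group and 1 each of the 72 hpl and 5 dpl groups. At 72 hpl the count was also 1 without the set term, 1 with eBayes without trend, and 1 without both unnumbered 0 h libraries, a choice made after seeing the data; the cause was not tested.

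With the replicate number as a block, 1 gene passed at 72 hpl, and pax6a passed neither at 24 hpl (-0.46, limma adjusted p = 0.0761) nor at 72 hpl (-0.31, 0.264). That fit also lacks the 2 unnumbered 0 h libraries. Without them and with no block, pax6a passed at 24 hpl (-0.51, 0.035) and not at 72 hpl (-0.36, 0.164), so the loss at 72 hpl came without the block too. Deviations of retinas with equal numbers had correlations of -0.245 to 0.126 with 0 h, and 0 of 46 libraries were closest to their own number. The means of time-point and set had been taken out, and each number lies in a single set. That step by itself lowers the likeness of equal numbers, so the check cannot decide whether numbers pair the retinas. Median-of-ratios rescaling moved the median of all genes by -0.149 at 36 hpl and -0.146 at 10 dpl, and upper quartile rescaling by -0.138 and -0.15. The planned count of promoter motifs was not run. Depth per library is unknown, so no counting interval can be given, and values near 0, as of socs3a and of ascl1a before 72 hpl, carry unknown counting error.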

Other observations

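Modulators of Wnt, Hippo and TGFβ signalling, which also bear on Müller glia in zebrafish, had 3 of 16 genes higher and 1 lower at 36 hpl, where 9.66% of all genes were higher and 3.80% lower, and 1 higher and 1 lower at 24 hpl, where 8.37% and 7.14% were. Smad7, an inhibitor of TGFβ signalling, ran from 39.3 to 83.6 at 0 h and from 106.0 to 208.2 at 36 hpl (log2 fold change 1.48 ± 0.27, SE, n = 6 against 6; limma adjusted p = 4.67e-05). Smad3a, a mediator of that signalling, ran from 89.5 to 129.8 and from 34.7 to 56.6 (-1.22 ± 0.17, adjusted p = 3.75e-07). The groups did not overlap for either gene, and at 72 hpl neither passed (-0.43 and 0.04, adjusted p = 0.313 and 0.919). Yap1, a coactivator of the Hippo pathway, was higher at 24 hpl (0.65, adjusted p = 0.00912) and 36 hpl (0.69, adjusted p = 0.00589).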
